A study of Mus musculus with 53 samples.

Results

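The 8 genes described here, Neurod1, Neurod2, Nhlh1, Nhlh2, Etv1, Nfia, Nfib and Nfix, encode transcription factors that are linked in the literature to the differentiation of cerebellar granule neurons. They were taken by gene symbol from the deposited tables, where each symbol had 1 row: 8 of 55573 genes in the bulk RNA tables and 8 of 57010 genes in the single-cell matrices. The rule is a list of names and uses no measured value, though the list was drawn up with earlier results of these data known. The series deleted Insm1, or Tead1 together with Tead2, in the mouse cerebellum with Atoh1Cre, a Cre recombinase expressed in the progenitors of granule neurons and of a few other rhombic lip derivatives. Bulk RNA-seq was made at postnatal day 2 (P2) from 4 Insm1fl/fl controls, 4 Atoh1Cre;Insm1fl/fl mutants, 3 Tead1fl/fl;Tead2fl/fl controls and 4 Atoh1Cre;Tead1fl/fl;Tead2fl/fl mutants. Single-cell RNA-seq by split-pool barcoding was made at postnatal day 7 (P7) from 2 controls and 3 mutants for each of the same genotypes. In the cell metadata, library 1 of each group held all lobules and libraries 2 and 3 lacked lobules IX and X. All animals carried floxed alleles, the controls had no Cre, and each library came from the cerebellum of 1 animal. The 2 alleles were separate batches at P2. At P2 the whole tissue was measured, so cells outside the Atoh1 lineage contributed to every value.

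Granule neurons arise from progenitors in the external granule layer, which divide, leave the cell cycle, extend axons and migrate inwards past the Purkinje cells to the internal granule layer. The basic helix-loop-helix factors of this list bind E-boxes, the sequence CANNTG, as dimers with the broadly expressed E proteins Tcf3, Tcf4 and Tcf12. Neurod1 is needed for granule neurons to leave the progenitor state and survive, Neurod2 for their later survival, and Nhlh1 marks newly postmitotic granule neurons; Nhlh2 is its close relative. Etv1 is an ETS factor that switches on genes of mature granule neurons, among them the glutamate receptor subunit gene Grin2c, in an activity-dependent way. Nfia, Nfib and Nfix are nuclear factor I (NFI) proteins that bind the sequence TTGGC, commonly as a pair of sites, and control axon, migration and maturation genes of granule neurons such as Cntn2, Ephb1 and Gabra6.

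Promoter sequence is shown for the 3 helix-loop-helix genes that were lower in P7 mutants, and for both listed start sites of Etv1, which was higher in P7 mutant granule neuron-like cells. Each line gives the 250 bases before the annotated RefSeq start on GRCm38.p6, 5′ to 3′ on the strand of the gene. Capitals mark E-boxes (CANNTG) in the Nhlh1, Nhlh2, Neurod1 and second Etv1 lines and the TEAD motif GGAATG in the first Etv1 line.
Nhlh1: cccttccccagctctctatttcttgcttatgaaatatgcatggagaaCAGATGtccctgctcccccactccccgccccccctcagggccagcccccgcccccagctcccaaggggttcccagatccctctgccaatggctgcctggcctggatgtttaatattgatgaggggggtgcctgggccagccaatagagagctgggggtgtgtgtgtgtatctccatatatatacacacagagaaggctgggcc
Nhlh2: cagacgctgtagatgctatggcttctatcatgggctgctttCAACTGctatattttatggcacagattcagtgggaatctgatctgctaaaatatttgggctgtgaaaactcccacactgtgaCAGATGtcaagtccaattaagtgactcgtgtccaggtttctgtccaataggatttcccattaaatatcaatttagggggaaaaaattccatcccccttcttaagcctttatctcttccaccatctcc
Neurod1: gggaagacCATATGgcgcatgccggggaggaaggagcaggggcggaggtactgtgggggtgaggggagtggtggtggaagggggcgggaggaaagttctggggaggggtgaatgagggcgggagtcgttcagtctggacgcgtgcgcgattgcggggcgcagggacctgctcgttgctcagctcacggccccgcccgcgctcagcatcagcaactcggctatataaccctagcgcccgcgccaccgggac
Etv1, first start: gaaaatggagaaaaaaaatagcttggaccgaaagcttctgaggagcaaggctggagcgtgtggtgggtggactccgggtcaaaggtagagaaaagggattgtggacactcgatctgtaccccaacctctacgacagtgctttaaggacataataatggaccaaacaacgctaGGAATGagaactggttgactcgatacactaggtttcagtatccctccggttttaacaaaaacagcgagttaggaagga
Etv1, second start: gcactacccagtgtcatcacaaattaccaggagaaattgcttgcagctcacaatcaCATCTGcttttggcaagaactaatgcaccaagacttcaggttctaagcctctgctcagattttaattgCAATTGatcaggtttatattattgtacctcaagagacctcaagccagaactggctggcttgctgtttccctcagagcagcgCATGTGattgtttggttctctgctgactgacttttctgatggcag

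The Nhlh1 stretch lies at chr1:172057597-172057846 on the minus strand and holds 1 E-box, CAGATG, 203 bases before the start. Nhlh2, at chr3:102009895-102010144 on the plus strand, has 2, CAACTG at 209 bases and CAGATG at 127 bases. Neurod1, at chr2:79456637-79456886 on the minus strand, has 1, CATATG, at 242 bases. These counts are near what any promoter shows: an E-box was present in 66.2% of 32851 promoters of the same length. The first Etv1 stretch, at chr12:38779832-38780081 on the plus strand, holds GGAATG 78 bases before the start and no E-box. The second, at chr12:38783461-38783710 on the plus strand, holds 3 E-boxes, CATCTG at 194 bases, CAATTG at 126 bases and CATGTG at 45 bases, 1 TTGGC and no GGAATG, so E-boxes stand upstream of both falling and rising members. The first start was the only 1 of 11 start sites listed for 7 of the members that held GGAATG, against 12.6% of all promoters. At least 1 TTGGC stood in 5 of the 11 starts, and in 41.5% of all promoters. Each motif was searched on both strands, the motifs do not overlap one another in these 5 stretches, and a match here describes letters and not binding.

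Bulk libraries held 28066726 to 64518819 estimated counts. At P7, 79838 cells had 1000 or more unique molecular identifiers (UMIs). Libraries held between 4779 and 10710 such cells, their median depths ranged from 6865.5 to 10186.5 UMIs (4358 to 7826 in the 45234 cells kept after doublet removal, on which all classes rest), and no barcode was shared between libraries. All markers listed for granule progenitors (13) and granule neurons (12) were detected in the P2 tissue. The deleted genes were read first. Insm1 was 30.8 to 71.9 CPM (counts-per-million of the library total, TMM-scaled) in the Insm1 controls and 8.5 to 16.2 in the mutants at P2. Tead2 was 22.3 to 25.6 CPM in the Tead1/2 controls, 17.3 to 19.4 in 3 mutants and 25.7 in the library labelled Tead1/2 mutant 4. At P7, summed over all cells, Insm1 averaged 57.3 CPM in Insm1 controls and 9.3 in mutants, and Tead2 31.0 in Tead1/2 controls and 8.0 in mutants, without overlap. Tead1 did not fall (log2 fold change −0.09 ± 0.14 SE at P2) and was higher at P7 (0.93 ± 0.07), at 631 CPM in controls and 1204 in mutants on average. Counts per gene include transcript outside the deleted part, so those of Tead1 do not check the label. Skeletal muscle markers, which mark a cell type foreign to this tissue, summed to 201 to 321 CPM in the P2 Insm1 mutants against 42.0 to 69.1 in controls, and 18 of 21 tested were higher. The same sum was 47.5 to 276 in the Tead1/2 mutants, lowest in the library labelled mutant 4, against 49.0 to 54.2. In P7 sums all 24 muscle markers were higher in both mutants, at 6217 to 7377 against 76.0 to 92.1 CPM for Insm1 and 14077 to 22720 against 66.9 to 78.9 for Tead1/2. The P2 Tead1/2 fold changes of Nhlh1, Neurod2 and Etv1, and the counts of genes called for that allele, are given with and without the library labelled Tead1/2 mutant 4. Fold changes of the other members are given with all libraries.

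At P2, Nhlh1 was lower in Insm1 mutants and no other of the 8 genes passed the test. Nhlh1 stood at 26.1, 23.3, 27.7 and 34.9 CPM in the controls and at 11.6, 15.1, 17.5 and 16.4 CPM in the mutants. Every mutant library lay below every control, and the fall was −0.89 ± 0.15 on the log2 scale (adjusted p = 0.0246, edgeR quasi-likelihood test with Benjamini-Hochberg adjustment over 19582 genes). It was called in 1 of 8 members against 0.689% of all genes, and 1 of 8 members had groups that did not overlap against 6.18% of genes. The call was lost when any 1 of 5 libraries was left out (control 1, 3 or 4, mutant 2 or 4), where the adjusted p rose to between 0.0616 and 0.0759 with the log2 fold change between −0.77 and −0.93. Summed markers of granule progenitors were also lower in these mutants, at 1721 to 1913 CPM against 2061 to 2268, with 1 of 13 markers called lower. Those of endothelial cells were lower (148 to 201 against 207 to 227) and those of unipolar brush cells higher (89.1 to 106.8 against 83.1 to 87.4, 1 of 4 called). Their part in the fall of Nhlh1 was not tested. In bulk tissue, fewer cells of a type and less RNA per cell cannot be told apart.

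The other helix-loop-helix genes and Etv1 did not pass the test in the same mutants. Neurod1 ranged over 169 to 198 CPM in controls and 158 to 198 in mutants (log2 fold change −0.04, 95% interval −0.21 to 0.13). Neurod2 was 81.9 to 104.7 against 97.1 to 111 CPM (0.13 ± 0.08), and Nhlh2 70.0 to 85.3 against 63.0 to 73.9 CPM (−0.14 ± 0.08). Etv1 lay between 29.4 and 41.1 CPM in all 8 libraries (0.08 ± 0.11). Their groups overlapped in each case.

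The 3 NFI genes were each lower on average in Insm1 mutants without passing the adjusted test. Nfix was 216, 163, 119 and 216 CPM in controls and 65.8, 140, 114 and 127 CPM in mutants, a log2 fold change of −0.68 ± 0.24 (adjusted p = 0.417). Control 3 lay among the mutants and mutant 1 lay well below the rest. Nfia gave −0.42 ± 0.17 (adjusted p = 0.508) and Nfib −0.22 ± 0.10 (adjusted p = 0.533). Over 13 alternatives Nfix ranged from −0.83 to −0.49, Nfia from −0.54 to −0.26 and Nfib from −0.27 to −0.14, with none called. Mutant 1 was also lowest for Nfia, at 131 against 209 to 235 CPM in the other mutants, and for Nfib, at 482 against 579 to 642 CPM. The median log2 fold change over the 8 members was −0.18, beside 0.01 over all genes.

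**Figure D1:**
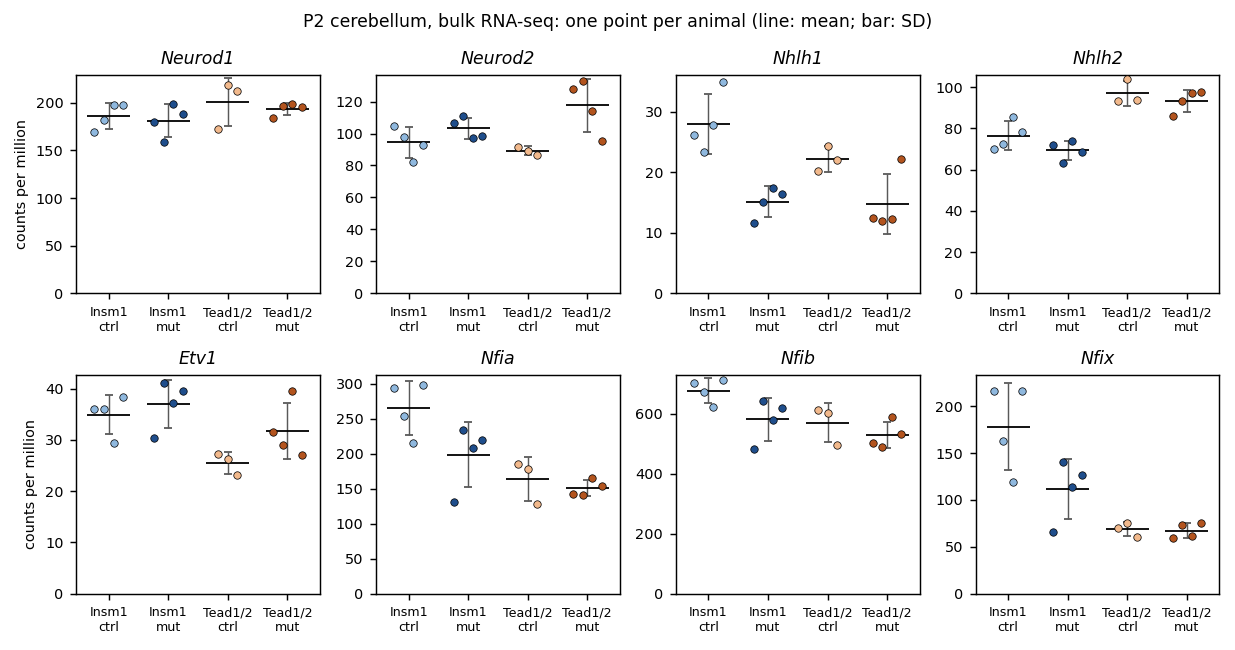
CPM of the 8 genes in each P2 bulk library (vertical axes start at 0), with the mean as a line and the SD as a bar, for the 4 genotype groups along the horizontal axis. Nhlh1 in the Insm1 mutants (11.6 to 17.5) lies wholly below its controls (23.3 to 34.9), and 1 Tead1/2 mutant library, at 22.2, lies with the Tead1/2 controls.

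After deletion of Tead1 and Tead2, none of the 8 genes was called at P2 when all 7 libraries were fitted, and none of the 20247 genes tested was called either (0% of genes; 4052 had an unadjusted p under 0.05 in edgeR and DESeq2 called 955). Among the members, 3 had an unadjusted p under 0.05 in edgeR, and DESeq2 called 1, Neurod2. Nhlh1 was 20.1, 24.4 and 22.1 CPM in controls and 12.5, 11.96, 12.3 and 22.2 CPM in mutants, so that 3 mutants lay between 11.96 and 12.5 CPM and the library labelled mutant 4 sat with the controls. The log2 fold change of Nhlh1 was −0.60 ± 0.19 (adjusted p = 0.145) with that library and −0.86 ± 0.08 (adjusted p = 0.000538) without it. Neurod2 moved the other way, at 91.9, 89.2 and 86.3 CPM in controls and 128, 133, 114 and 95.6 CPM in mutants. Its groups did not overlap (1 of 8 members, 16.4% of genes), and its log2 fold change was 0.40 ± 0.10 (adjusted p = 0.100) with the library labelled mutant 4 and 0.49 ± 0.07 (adjusted p = 0.00455) without it. Summed markers of other cells also stood apart in these libraries, those of Purkinje cells at 1415 to 1577 CPM in mutants against 1291 to 1336 and those of the oligodendrocyte lineage at 333 to 361 against 374 to 377, and their part in these values was not tested. Without that library 646 of 20234 genes, 3.19%, were called, and 2 of the 8 members with them.

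Etv1 was 27.2, 26.2 and 23.1 CPM in Tead1/2 controls and 31.4, 29.0, 39.4 and 27.1 CPM in mutants (0.31 ± 0.12, adjusted p = 0.187). Without the library labelled mutant 4 it was 0.38 ± 0.11 (adjusted p = 0.105). Over 12 alternatives its log2 fold change ranged from 0.19 to 0.38, and it was called in 1. The remaining 5 members showed log2 fold changes of −0.12 to −0.03 with overlapping groups. For Neurod1, 172 to 218 CPM in controls and 184 to 199 in mutants, the 95% interval was −0.21 to 0.10. The difference between the effects of the 2 deletions was tested as an interaction in all 15 libraries. It was called for none of the 8 members (1, Nfix, had an unadjusted p under 0.05) and for 0% of 20837 genes in edgeR, where 1435 had an unadjusted p under 0.05 and DESeq2 called 17. For Nhlh1 the interaction was 0.30 ± 0.27 with all libraries and 0.04 ± 0.20 without the library labelled Tead1/2 mutant 4, again uncalled. With all libraries its 95% interval was −0.24 to 0.84, which leaves room for the effects to differ.

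At P7, sums of UMIs over all cells of each library, given as TMM-scaled CPM, showed Neurod1, Nhlh1, Nhlh2, Nfia, Nfib and Nfix lower in both mutants. For the Insm1 allele 6 of 8 members fell and 1 rose, in a comparison where 33.9% of 24602 genes were called, and for Tead1/2 6 fell and none rose, where 48.6% were called. Medians over the members were −0.46 and −0.73, beside 0.04 and 0.06 over all genes. Nhlh1 fell furthest for both alleles: from 70.8 and 68.9 to 33.1, 28.4 and 24.2 CPM for Insm1 (log2 fold change −1.29 ± 0.12), and from 61.3 and 74.0 to 23.6, 25.5 and 23.96 for Tead1/2 (−1.47 ± 0.12). Neurod1 went from 523 and 511 to 293, 242 and 220.1 for Insm1 (−1.04 ± 0.14) and from 406 and 437 to 128, 171 and 183 for Tead1/2 (−1.39 ± 0.14). All adjusted p-values of Nhlh1 and Neurod1 in these sums were 0.000349 or lower. Groups did not overlap for 7 and 8 of the 8 members, against 58.9% and 66.1% of genes.

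The mixture of cells also differed between these libraries. Cells were clustered without the 8 genes and classes were named from marker genes that leave them out, so that the members' levels did not name the cells. Class shares cover only cells kept after doublet removal, which took 43.7 to 58.9% of control and 23.5 to 53.5% of mutant cells. The sums kept every cell, so these shares need not be those of the sums. Granule neuron-like cells were 40.9 ± 2.0% (SD) of the classified cells in Insm1 controls and 27.8 ± 3.4% in mutants, and 34.2 ± 2.8% and 18.4 ± 1.8% for Tead1/2. Granule progenitor-like cells went from 39.6 to 31.0% and from 43.8 to 27.2%. Skeletal muscle-like cells numbered 6 in all controls and 4981 in the mutants, 12.5 ± 0.5% of Insm1 and 21.6 ± 3.5% of Tead1/2 mutant cells. Of the markers, 11 and 12 of 13 for granule progenitors were lower in the sums, and 6 of 12 for granule neurons were lower and 4 higher for each allele. Meningeal fibroblast markers, in the class where Etv1 was highest, summed to 971 to 1082 CPM in Insm1 mutants against 255 to 271 and to 1999 to 2310 in Tead1/2 mutants against 237 to 263. Of 9 such markers 2 were called higher for Insm1 and 8 for Tead1/2. Cells named as that class were 1.06 and 0.453% in Insm1 controls and 1.71 and 1.15% in mutants 1 and 2, with none named in mutant 3, and 0.914 to 1.39% in Tead1/2 controls and 2.02 to 4.99% in mutants. Oligodendrocyte lineage, microglia-marker and astroglia-like cells, also higher in Etv1 than granule cells in controls, were larger shares in mutants too. They averaged 1.36 and 2.53%, 0.645 and 1.36%, and 4.76 and 8.30% in Insm1 controls and mutants. For Tead1/2 these were 1.64 and 5.16%, 2.44 and 4.76%, and 2.59 and 4.97%. The part of these shifts in the summed values was not tested, and the granule classes were fitted separately.

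In controls, the 4 helix-loop-helix genes were highest in neurons. Class levels below are CPM of the class's UMIs without TMM scaling, as mean ± SD over 4 control libraries unless said otherwise, are given as a description and are compared between classes for 1 gene at a time. Neurod1 was 882 ± 79.0 in granule neuron-like cells, 417 ± 40.3 in granule progenitor-like cells and 82.2 ± 11.1 in GABAergic interneuron-like cells, with no overlap between these 3, and 22.6 to 38.4 on average in the 5 other classes, whose ranges overlapped. Nhlh1 kept the same order at 123 ± 10.0, 57.6 ± 6.2 and 35.8 ± 8.9, and 1.97 to 8.68 elsewhere. Nhlh2 was 184 ± 21.6 in granule neuron-like and 168 ± 10.3 in GABAergic interneuron-like cells, whose ranges overlapped, and 94.5 ± 18.1 in progenitor-like cells. Neurod2 was on average higher in GABAergic interneuron-like cells (91.0 ± 9.1) than in granule neuron-like cells (73.6 ± 13.5), with overlapping ranges, and was 34.3 ± 6.9 in progenitor-like cells.

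Etv1 had another order altogether. It was highest in meningeal fibroblast-like cells (198 ± 8.4, 3 libraries), then 93.8 ± 36.8 in oligodendrocyte lineage, 92.4 ± 29.4 in the class named from microglia markers (3 libraries) and 66.6 ± 13.2 in astroglia-like cells, 3 classes whose ranges overlapped. Granule progenitor-like cells had 37.3 ± 4.7, granule neuron-like cells 12.9 ± 2.8 and GABAergic interneuron-like cells 7.3 ± 0.6, each below the one before without overlap save that endothelial-like cells (22.6 ± 5.4, 2 libraries) stood between the granule classes. At P7, then, the controls held less Etv1 in granule neuron-like than in progenitor-like cells, which goes against a simple reading of the list as genes that rise on differentiation. The same was so for Nfia, at 6878 ± 172 in progenitor-like and 5903 ± 306 in neuron-like cells, and for Nfix, at 990 ± 54.6 and 765 ± 45.7. Nfib went the other way, 6910 ± 159.8 and 7605 ± 368. All 3 NFI genes were broad: astroglia-like cells had 3399 ± 56.4 of Nfia, 2617 ± 214 of Nfib and 603 ± 32.0 of Nfix, and the lowest class, that of the microglia markers, still held 1000.1 of Nfia, 144 of Nfib and 60.9 of Nfix. That class joined cluster 15 (916 cells), led by Mpeg1 and Cx3cr1 among others, with cluster 29 (272 cells), led by the macrophage genes Mrc1, F13a1 and Lyve1, and cluster 16 (28 cells), with Ccr2, Cd74 and Lyz2 among its leading genes. In controls, cluster 15 alone had 75.4 ± 11.6 of Etv1, 1024 ± 169 of Nfia, 149 ± 54.2 of Nfib and 56.9 ± 15.8 of Nfix, while cluster 29 had 316 of Etv1 in its 1 control library with enough cells.

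The skeletal muscle-like cells of the 6 mutant libraries held little of the helix-loop-helix genes. Neurod1 was 10.3 to 33.8 CPM in them, Neurod2 2.7 to 6.5, Nhlh1 2.4 to 7.4 and Nhlh2 5.3 to 17.4. Etv1 was 13.6 to 19.2. The NFI genes ranged over 1409 to 2642 for Nfia, 1517 to 2446 for Nfib and 336 to 540.1 for Nfix. Their means lay above the class of the microglia markers, the lowest control class for each, and below control astroglia-like cells and the granule classes. Control granule neuron-like cells averaged 5903, 7605 and 765 of Nfia, Nfib and Nfix. Within the skeletal muscle-like cells Nfia averaged 3379 in the cluster led by Esr1, Cdkn1c and Myog, 1706 in the next and 1112 in the cluster led by the sarcomere genes Myh8 and Neb. Nfib (3335, 1627 and 1189) and Nfix (606, 492 and 319.7) showed the same order.

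**Figure D2:**
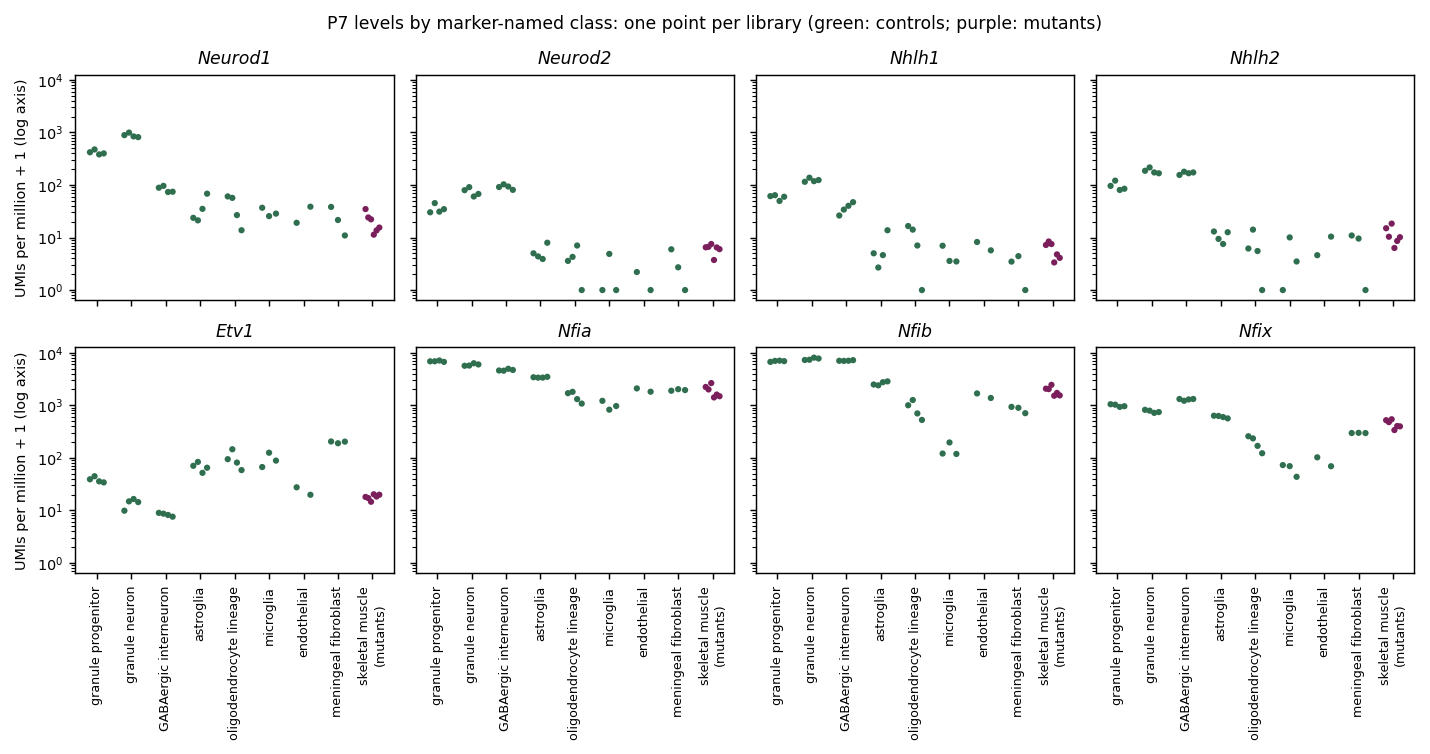
Level of each gene (CPM + 1 without TMM scaling, log axis, not comparable between genes) in each class named from markers that leave the 8 genes out, 1 point per library, controls in green and mutants in purple. Neurod1 stands at about 882 in granule neuron-like cells against 22.6 to 38.4 in non-neuronal classes, while Etv1 is highest in meningeal fibroblast-like cells at 198.

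In the granule lineage as a whole, progenitor-like and neuron-like cells together, 4 members were lower and Etv1 was higher for both alleles. Called members were 5 of 8 for each, where 17.6% and 19.6% of 16490 genes were called. Nhlh1 went from 87.3 and 98.4 to 53.3, 44.6 and 43.5 for Insm1 (−0.97 ± 0.11) and from 74.9 and 84.8 to 45.3, 57.5 and 49.4 for Tead1/2 (−0.65 ± 0.11). Nhlh2, Neurod1 and Nfix were the other 3. The Nfix calls (−0.37, adjusted p = 0.0172, and −0.33, adjusted p = 0.0277) were lost without either control of their own allele, without Insm1 mutant 2 or 3, or without Tead1/2 mutant 1 or 2, at adjusted p-values of up to 0.0985 and 0.155. The Nhlh2 call for Tead1/2 (−0.42, adjusted p = 0.0213) was lost without either Tead1/2 control, at up to 0.118. Neurod1 was close to the threshold, at −0.46 (adjusted p = 0.0405) and −0.44 (adjusted p = 0.0479). Its call was lost without either control of its own allele, at an adjusted p of 0.0895 and 0.263 for Insm1 and 0.182 and 0.193 for Tead1/2. The Insm1 call was also lost without Insm1 mutant 2 or 3 or either Tead1/2 control, and the Tead1/2 call without any 1 of the Insm1 libraries. Without Tead1/2 mutant 1 the Tead1/2 value was −0.26 (adjusted p = 0.0264). The library Tead1/2 mutant 1, the 1 Tead1/2 mutant that kept all lobules, stood apart with 313 CPM of Neurod1 against 463 and 468, and 44.6 of Neurod2 against 81.1 and 75.4. With 1 such library in the group, dissection and animal cannot be told apart. In the Insm1 mutants, 1 of which also kept all lobules, Neurod1 ranged over 471 to 538 and Neurod2 over 68.4 to 79.9.

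Among granule neuron-like cells (6510 control and 6288 mutant cells) the clearest change was a rise of Etv1, with falls of Nhlh1, Nhlh2, Nfia and Nfix, in both mutants. Called members were 5 of 8 for each allele, where 18.3% (Insm1) and 21.5% (Tead1/2) of 13864 genes were called, and the members' medians were −0.25 and −0.32 beside 0.00 and 0.01 over all genes. Etv1 rose from 8.8 and 13.8 to 79.8, 79.7 and 74.8 CPM in Insm1 mutants, a log2 fold change of 2.84 ± 0.17 (adjusted p = 5.66e-07). In Tead1/2 mutants it rose from 15.02 and 13.0 to 57.1, 59.3 and 46.7, or 1.95 ± 0.17 (adjusted p = 5.15e-06). The values rest on 86 to 150 Etv1 UMIs in each control and 254 to 607 in each mutant. Every mutant was more than 3 times the highest control of its allele, while GABAergic interneuron-like cells, which do not come from the Atoh1 lineage, held 7.3 ± 0.6 unscaled CPM in controls and 9.2 ± 1.2 in the 6 mutants. Astroglia-like cells went the other way, from 50.8 to 82.5 in the 4 controls to 22.4 to 50.1 in the 6 mutants, a description with no test. Each other member was also on average lower in mutant astroglia-like cells, for example Nfia at 3399 in controls and 3055 in mutants. How many of all genes differ in this way in that class was not counted.

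Nhlh1 in neuron-like cells stood at 113 and 137 in Insm1 controls and 66.4, 52.5 and 58.9 in mutants (−1.07 ± 0.13, adjusted p = 0.000108). For Tead1/2 it was 114 and 119 against 51.6, 67.5 and 67.7 (−0.90 ± 0.13, adjusted p = 0.000338). Nhlh2 followed, at 183 and 214 against 110.3, 112 and 119 for Insm1 (−0.81 ± 0.13) and 167 and 161 against 76.5, 102 and 113 for Tead1/2 (−0.76 ± 0.13). Both genes were lower in all 6 mutants than in any control. In GABAergic interneuron-like cells their levels did not separate: Nhlh1 was 25.2 to 46.1 in controls and 32.5 to 52.7 in mutants, and Nhlh2 154 to 178 and 129 to 186. Lower levels were not limited to granule cells, however. In astroglia-like cells Nhlh2 was 6.5 to 12.01 in controls and 2.1 to 6.0 in mutants, and Neurod1 was on average lower in mutants in all 6 of the non-granule classes that had controls, for example 82.2 and 65.8 in GABAergic interneuron-like cells and 29.3 and 9.3 in the class of the microglia markers. Outside neurons these levels were low beside the means of 184 for Nhlh2 and 882 for Neurod1 in control granule neuron-like cells. The part of background signal in them was not tested.

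Neurod1 and Neurod2 did not pass the test in neuron-like cells. Neurod1 was 878 and 991 against 803, 748 and 847 for Insm1 (−0.23, 95% interval −0.57 to 0.12) and 815 and 789 against 440.1, 715 and 771 for Tead1/2 (−0.32, −0.66 to 0.02). The Insm1 value depends on how doublets were treated: with only the top 4% of doublet scores removed it was −0.60 (adjusted p = 0.0027). Neurod2 was 77.8 and 89.8 against 104.1, 119.8 and 125 for Insm1 (0.47 ± 0.18, adjusted p = 0.106) and 57.7 and 64.5 against 60.1, 101.4 and 101.3 for Tead1/2 (0.52 ± 0.19, adjusted p = 0.0698). With dissection as a covariate, that is all lobules against lobules IX and X removed, Neurod2 was called for both alleles, at 0.41 (adjusted p = 0.0405) and 0.43 (adjusted p = 0.0298). Without the library Tead1/2 mutant 1 it was called for both too, at 0.47 (adjusted p = 0.0036) and 0.73 (adjusted p = 0.0003).

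Of the NFI genes, Nfix and Nfia were called in neuron-like cells and Nfib was not. Nfix fell from 809 and 788 to 649, 552 and 546 for Insm1 (−0.46 ± 0.10, adjusted p = 0.00712) and from 696 and 719 to 471, 528 and 598 for Tead1/2 (−0.41 ± 0.10, adjusted p = 0.0113). Nfia fell too, with log2 fold changes of −0.28 and −0.31 (adjusted p = 0.00962 and 0.00487), with mutants at 4499 to 5022 and controls at 5584 to 6132. Nfib was 7192 to 7833 in controls and 6297 to 7082 in mutants, without overlap within either allele, at −0.16 ± 0.06 and −0.18 ± 0.06 (adjusted p = 0.105 and 0.0731). The Nfix call was lost without Insm1 control 1 (adjusted p = 0.0603) and without either Tead1/2 control (0.0511 and 0.0792), and that of Nfia for Insm1 without Insm1 control 2 (0.0733). Nfib was called for Insm1 with only the top 4% of doublet scores removed (−0.30, adjusted p = 0.0188) and for Tead1/2 with DESeq2 (adjusted p = 0.0440) or without Tead1/2 mutant 1 (0.0374). Groups did not overlap for 8 of 8 members for Insm1 and 7 of 8 for Tead1/2, in comparisons where 47.1% and 48.8% of genes did not.

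Granule progenitor-like cells (7263 control and 8002 mutant cells) had lower Neurod1 for both alleles. For Insm1, Etv1 was higher and Neurod1, Nhlh1 and Nfix lower, 4 of 8 members where 16.5% of 15199 genes were called. For Tead1/2, Neurod2 was higher and Neurod1 lower, 2 of 8 where 19.9% were called. Neurod1 fell from 417 and 479 to 312, 260.4 and 242 for Insm1 (−0.72 ± 0.13, adjusted p = 0.00116) and from 388 and 403 to 235, 296 and 323 for Tead1/2 (−0.47 ± 0.13, adjusted p = 0.0157). Etv1 went from 37.9 and 44.1 to 64.8, 52.0 and 69.0 for Insm1 (0.59 ± 0.12, adjusted p = 0.00402) and stayed within 30.5 to 35.8 in all 5 Tead1/2 libraries (−0.07, 95% interval −0.31 to 0.17). The call of Etv1 was lost without Insm1 control 1 (0.48, adjusted p = 0.0781). That of Nfix (−0.31, adjusted p = 0.0416) was lost without either Insm1 control, Insm1 mutant 2 or 3 or either Tead1/2 control, at adjusted p-values of up to 0.157. Both Tead1/2 calls were lost when either control was left out, and that of Neurod2 (0.79 ± 0.24, adjusted p = 0.0310) also under DESeq2, at 0.77 (adjusted p = 0.098), with only the top 4% of doublet scores removed (0.56, adjusted p = 0.0712), at a cluster resolution of 0.5 (0.51, adjusted p = 0.188) and without Tead1/2 mutant 2 or 3. Other members were called only under some alternatives. Nhlh2 for Insm1 was −0.34 ± 0.12 (adjusted p = 0.0788) and was called in 5 of 15, at −0.34 to −0.52. For Tead1/2, Nhlh1 was −0.28 ± 0.12 (adjusted p = 0.117) and was called in 3 of 15, among them −0.57 (adjusted p = 0.0016) with only the top 4% of doublet scores removed. Nfix for Tead1/2, at −0.28 ± 0.10 (adjusted p = 0.0555), was called in 4 of 15. Nfia and Nfib had log2 fold changes of −0.12 to 0.11 in these cells, none called.

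**Figure D3:**
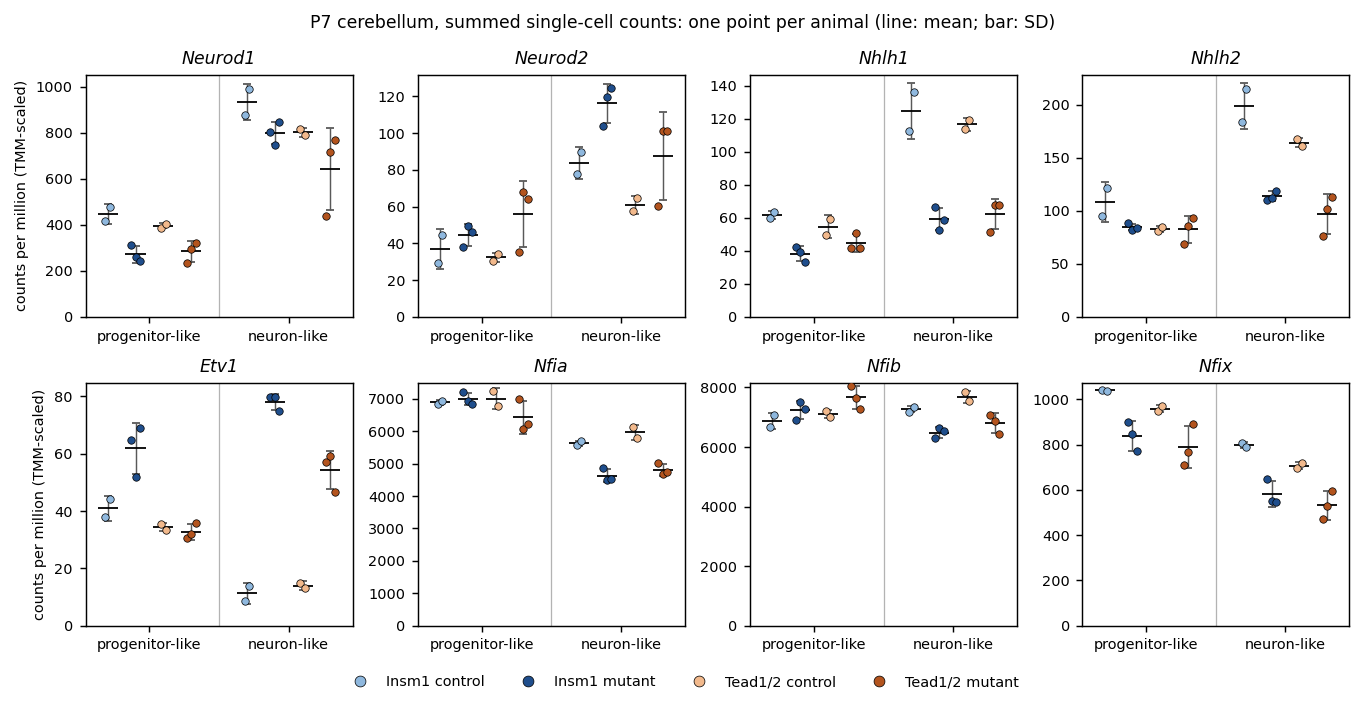
TMM-scaled CPM of the 8 genes (vertical axes start at 0) summed over granule progenitor-like and granule neuron-like cells of each P7 library, with the mean as a line and the SD as a bar, in the 4 genotype groups. In neuron-like cells Etv1 lies at 46.7 to 79.8 in the 6 mutants against 8.8 to 15.02 in the 4 controls, and Nhlh1 at 51.6 to 67.7 against 113 to 137.

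**Figure D4:**
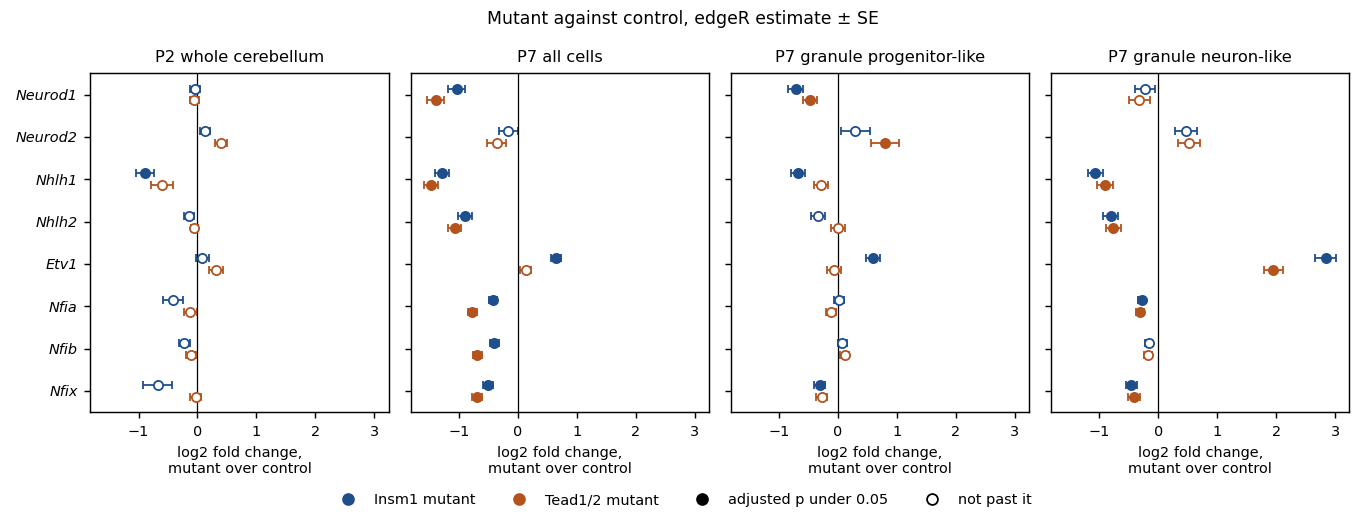
Log2 fold change of mutant over control (horizontal axis) with its standard error for each gene and allele in 4 kinds of comparison, filled where the adjusted p is under 0.05. Nhlh1 lies left of 0 in all 4 panels for both alleles, and Etv1 reaches 2.84 (Insm1) and 1.95 (Tead1/2) in neuron-like cells. The P2 values of Etv1, 0.08 and 0.31, are of whole tissue, so the like P7 panel is that of all cells.

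Different clusters held most of each class in controls and mutants, and the members’ levels differed between clusters. Of granule neuron-like cells, clusters 2, 7 and 8 held 99.1% of control and 25.9% of mutant cells, and clusters 14, 19 and 21 the rest. Etv1 in cluster 2 averaged 19.1 ± 4.4 in 4 control and 17.02 ± 12.4 in 6 mutant libraries, in cluster 7 7.9 ± 1.9 and 5.4 ± 3.3, and in cluster 8 5.9 ± 4.6 and 4.9 ± 6.3 (5 mutant libraries). In the clusters made up mostly of mutant cells it averaged 48.4 ± 5.7 (cluster 14), 101.8 ± 23.5 (cluster 19) and 104.4 ± 36.9 (cluster 21). In the 3 shared clusters the means of mutants and controls differed by less than the larger of their SDs. Mutant libraries ranged over 0 to 37.3, 0 to 9.7 and 0 to 15.3 CPM in clusters 2, 7 and 8, with as few as 24 cells in cluster 2. With so few UMIs, like levels are not shown. The high levels of Etv1 stood in clusters that held few control cells. The control cells of cluster 21, in the 1 control library with enough of them, also had more Etv1 (40.5) than those of clusters 2, 7 and 8, and their Nhlh1 was at 0. That library, Tead1/2 control 2, held 25 cells of the cluster, so few UMIs stand behind both values. The clusters were made from the genes of these same cells, so these values carry no test.

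Some of the falling genes were lower in mutant cells of the shared clusters too, by more than the larger SD for Nhlh1 in cluster 2 and for Nfia in all 3. Nhlh1 averaged 168 ± 23.1 in control and 136 ± 25.8 in mutant cells of cluster 2 and 117 ± 12.1 and 99.3 ± 21.6 in cluster 7, against 54.1, 58.0 and 5.3 in mutant clusters 14, 19 and 21. Nhlh2 averaged 215 and 184 in cluster 2, 196 and 175 in cluster 7, and 91.8, 109.8 and 20.8 in the mutant clusters. Nfix averaged 875 and 817 in cluster 2 and 613, 442 and 279.6 in the mutant clusters. Nfia was lower in mutant than in control cells of each shared cluster: 7096 and 6397 ± 569 in cluster 2, 5623 and 5028 ± 351 in cluster 7, and 3732 and 3110 ± 361 in cluster 8. Mutant clusters 14 and 19, at 5061 and 4996 of Nfia, lay above cluster 8, and cluster 21 (1713) below it. Cluster 8, a control cluster whose leading genes include Camk4 and Cdh18, was itself low in Nhlh1 (28.0 ± 5.4) and Nhlh2 (74.3), so low Nhlh1 was not limited to mutant clusters. Neurod2 was highest in mutant cluster 14, at 163, against 54.7, 82.0 and 93.2 in the control cells and 38.7, 58.0 and 82.0 in the mutant cells of clusters 2, 7 and 8. Cluster 14 was led by Fat2, a granule neuron cadherin, and cluster 19 by Ntng1, with Chn2 among its leading genes. Cluster 21, led by Syt6 and Grm5, had 202 of Neurod1 in its 1 control library with enough cells and 265 ± 109 in mutants.

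In progenitor-like cells, clusters 0, 1, 4, 5 and 6 held 99.5% of control and 27.5% of mutant cells, and clusters 3, 20 and 24 held 72.5% of mutant cells. Neurod1 spanned 207 to 735.5 across the control clusters and stood at 212, 200.2 and 339.6 in the mutant clusters. In all 5 shared clusters it was on average lower in mutant than in control cells: 581 and 473 in cluster 0, 207 and 110 in cluster 1, 427 and 353 in cluster 4, 302 and 209 in cluster 5, and 735.5 and 664 in cluster 6, as control and mutant means. Etv1 was 64.2 ± 25.1 in mutant cluster 3 and 27.2 and 35.3 in clusters 20 and 24, against 24.8 to 43.0 across control clusters. Neurod2 was 73.3 and 109 in clusters 20 and 24, above the 18.4 to 61.1 of the control clusters, and 26.3 in cluster 3. In each of the 5 shared clusters Neurod2 was on average lower in mutant than in control cells. Control and mutant means were 59.0 and 36.0 in cluster 0, 18.4 and 8.3 in cluster 1 and 31.3 and 19.1 in cluster 4. They were 24.5 and 15.1 in cluster 5 and 61.1 and 36.3 in cluster 6. Mutant libraries ranged over 0 to 18.7 CPM in cluster 1 and 0 to 30.5 in cluster 5, so few UMIs stand behind those means. The rise of Neurod2 in the class was called for Tead1/2 only, so these means, pooled over both alleles, cannot be set against it. Etv1 was also on average lower in mutant cells of all 5 shared clusters, by more than the larger SD in cluster 1 (24.8 ± 2.6 and 4.3 ± 5.0) and cluster 6 (43.0 ± 11.5 and 27.1 ± 12.3), 4 libraries each. The mutant libraries there were Insm1 mutant 1 and Tead1/2 mutants 1, 2 and 3, as the other Insm1 mutants had under 20 cells. In cluster 1 they held 56, 44, 20 and 24 cells, with Etv1 at 0 to 9.5 CPM, so few UMIs stand behind that mean. The rise of Etv1 in the class was called for Insm1 only, so these pooled means cannot be set against it. Cluster 3 held more Insm1 than Tead1/2 mutant cells, and clusters 20 and 24 more Tead1/2 mutant cells.

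**Figure D5:**
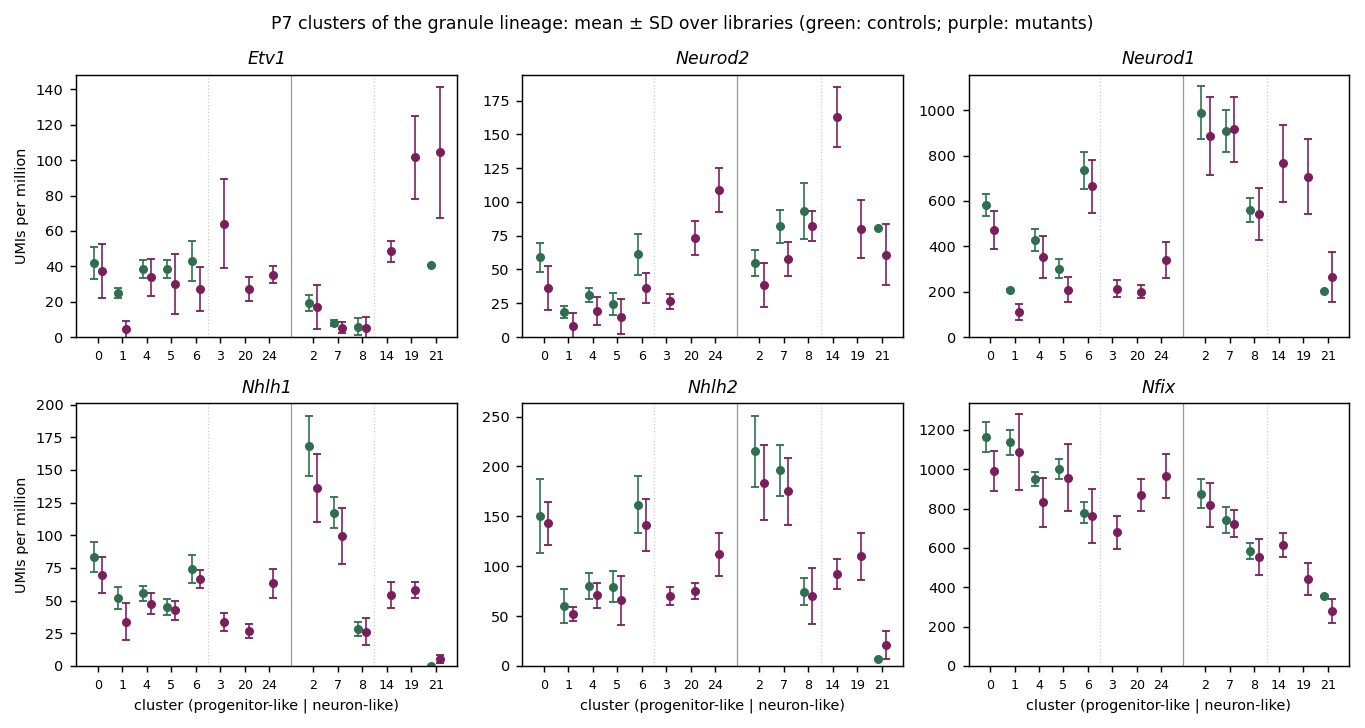
Level of 6 genes (CPM, mean ± SD over libraries with at least 20 cells) in each granule-lineage cluster, for controls and mutants; dotted lines part clusters shared by both from those made up of mutant cells. In neuron-like cells Etv1 averages 19.1 in control and 17.02 in mutant libraries of cluster 2 and reaches 48.4 to 104.4 in mutant clusters 14, 19 and 21, where Nhlh1 is 5.3 to 58.0.

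Counting cells rather than UMIs gave the same directions. Each granule-lineage cell was thinned to 2000 UMIs, and the share of cells with a UMI of the gene was compared by a two-sided exact permutation test, which with 2 controls and 3 mutants cannot go below p = 0.2 (adjusted p = 0.213 over 16 tests). Etv1 was seen in 4.86 ± 0.85% of Insm1 control cells and 10.9 ± 0.5% of mutant cells, and in 4.36 ± 0.25% and 6.43 ± 0.44% for Tead1/2. Unthinned, the shares of Etv1 were 9.83 and 22.7% for Insm1 and 11.8 and 17.4% for Tead1/2. From 13 to 144 cells per library were shallower than 2000 UMIs and were left out. Nhlh1 went from 16.2 to 8.93% and from 14.4 to 9.69%, Neurod1 from 66.4 to 51.1% and from 61.0 to 47.9%, and Neurod2 from 11.1 to 13.8% and from 8.46 to 12.5%. Mutant and control libraries did not overlap in these 8 comparisons. In the summed levels of the lineage 46.7% (Insm1) and 45.8% (Tead1/2) of all genes did not overlap either. Such a share over all genes was not taken for counts of cells. Unthinned, Nhlh1 went from 33.7 to 22.3% and from 35.3 to 26.5%, Neurod1 from 84.6 to 73.2% and from 84.7 to 73.3%, and Neurod2 from 24.4 to 31.5% and from 22.7 to 33.0%, the last with overlapping libraries. In cells that should lack the helix-loop-helix genes, at the same depth, the median share with Neurod1 was 5.13% in 3 controls and 1.56% in 6 mutants in the class of the microglia markers, and 2.33% in 2 controls and 2.78% in 6 mutants in endothelial-like cells. This background was thus higher in controls than in mutants in the first class, as the granule-lineage shares were, and its part in their difference was not tested. Median shares of Nhlh1, Neurod2 and Nhlh2 in these classes were 0 to 0.862% in controls and 0 to 0.549% in mutants. For Etv1 the medians over all libraries were 14.3 and 4.09%, and since control cells of both classes held Etv1 at 92.4 and 22.6 CPM they set no background for it. Nfia and Nfib were seen in at least 99.0% of cells in every group, so shares carry no information on them.

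Among relatives and partners of the members, the ETS gene Etv5 rose and the NFI gene Nfic fell in the granule lineage of both mutants. Of 15 such genes 11 were tested there, 2 rose and 2 fell for Insm1, and 2 rose and 3 fell for Tead1/2, where 17.6% and 19.6% of all genes were called, with medians of −0.11 and −0.15 beside 0.01 and 0.00 over all genes. Etv5, the ETS relative of Etv1 and a target of fibroblast growth factor signalling, rose by 3.42 ± 0.17 in Insm1 and 2.06 ± 0.17 in Tead1/2 mutants on the log2 scale. Etv4, the third gene of that family, rose by 1.74 ± 0.43 in Insm1 mutants. Nfic, the fourth NFI gene, fell in both (−0.88 ± 0.09 and −0.74 ± 0.09), and Neurod4 fell in Insm1 mutants (−1.68 ± 0.25). In Tead1/2 mutants Olig3, a factor of rhombic lip progenitors, rose by 1.9595 ± 0.31, and Atoh1, the factor that specifies granule progenitors, and Tcf4, a dimer partner of the Neurod proteins, fell (−0.83 ± 0.24 and −0.25 ± 0.07). The E protein genes Tcf3 and Tcf12 were not called there in either mutant.

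Of 4 genes known as NFI targets in granule neurons, 2 rose and 1 fell in the lineage for each allele, where 17.6% and 19.6% of all genes were called. Gabra6, the GABA-A receptor subunit of mature granule neurons, rose by 4.31 ± 0.68 (Insm1) and 2.75 ± 0.66 (Tead1/2). Ephb1, a receptor for ephrins, rose by 0.90 ± 0.16 and 0.65 ± 0.16, and Cntn2, an axonal adhesion molecule of young granule neurons, fell (−0.76 ± 0.13 and −0.95 ± 0.13). The list is too short for its median to describe, and 2 of its genes are also among the markers that named the cells.

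Of 30 granule neuron differentiation genes, 12 of them also naming markers, 14 rose and 8 fell in Insm1 neuron-like cells and 13 rose and 8 fell in Tead1/2, where 18.3% and 21.5% of all genes were called, with medians of 0.28 and 0.09 beside 0.00 and 0.01 over all genes. The risers with the smallest adjusted p were the same 4 in both alleles. Chn2, a Rac regulator, rose by 4.88 ± 0.30 and 2.86 ± 0.27, Fat2 by 2.63 ± 0.18 and 2.76 ± 0.19, Vsnl1, a calcium sensor, by 2.25 ± 0.18 and 2.22 ± 0.18, and Grin2c by 5.46 ± 0.55 and 4.70 ± 0.51. Fat2 was among the markers that named mutant clusters 14, 19 and 21, Chn2 clusters 19 and 21, and Grin2c cluster 21. The rises of Fat2, Chn2 and Grin2c in neuron-like cells are thus not independent of the naming. Dcx, the microtubule protein of migrating young neurons, fell (−0.54 ± 0.06 and −0.73 ± 0.06). At P2 Grin2c had already risen in Insm1 mutants (0.92 ± 0.14, adjusted p = 0.0175), as had the cell-cycle inhibitor Cdkn1c (0.79 ± 0.11, adjusted p = 0.00733), 2 of 30 genes called against 0.689% of all genes. In Tead1/2 none of the 30 was called with all libraries. Without the library labelled mutant 4, 7 were called, 3 higher and 4 lower, where 3.19% of all genes were. Of the 5 with the smallest adjusted p, Cdkn1c (0.99 ± 0.06), Cbln3 (0.83 ± 0.11) and Grin2c (1.68 ± 0.23) rose, and Dcc (−0.82 ± 0.07) and Tubb3 (−0.36 ± 0.05) fell. Cdkn1c was also among the leading genes of a skeletal muscle-like cluster at P7, and muscle markers were higher in the same P2 mutants, whose part in its rise was not tested.

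The 2 deletions were set against each other at P7 by an interaction term. In all cells 1 member was called, Etv1, where 3.68% of genes were, which rose for Insm1 (0.65 ± 0.09) and was not called for Tead1/2 (0.13 ± 0.09, adjusted p = 0.241; 0.29 and 0.0299 with Scrublet doublets removed). The difference was −0.52 ± 0.12 (adjusted p = 0.0498). That call was lost with sex or dissection as a covariate, with doublets removed, and without Insm1 control 1, any Insm1 mutant, either Tead1/2 control or Tead1/2 mutant 1 or 2. Within the granule lineage Etv1 was again the 1 member called, where 0.722% of genes were (−0.72 ± 0.14, adjusted p = 0.0480). There the call was lost with dissection as a covariate and without Insm1 control 1, any Insm1 mutant, either Tead1/2 control or Tead1/2 mutant 2 or 3, with values of −0.56 to −0.78 and adjusted p-values of up to 0.226. In neuron-like cells the difference was −0.88 ± 0.23 (adjusted p = 0.245), with no member and 0.13% of genes called, and in progenitor-like cells −0.67 ± 0.17 (adjusted p = 0.0898), with no member and 1.32% called. The members with an unadjusted p under 0.05 numbered 1 in neuron-like and 2 in progenitor-like cells. For the other 7 members the differences in neuron-like cells lay between −0.10 and 0.16, and their 95% intervals were as wide as −0.58 to 0.39 for Neurod1, so like effects of the 2 deletions are not shown. Among the listed genes, Etv5, Chn2 and Grin2c also had lower values for Tead1/2 in the lineage, with differences of −1.35 ± 0.24 (adjusted p = 0.0229), −2.22 ± 0.17 (adjusted p = 0.000175) and −2.96 ± 0.58 (adjusted p = 0.0434).

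Likeness of pattern was described over the mean levels of 8 classes in P7 controls, among 9779 genes, by Pearson's r of log2(CPM + 1), with classes that share libraries as the points. The genes most like Neurod1 were Zfp777 (0.988), 9130015G15Rik (0.979) and Mab21l1 (0.972), and those most like Nhlh1 were Srrm4 (0.991), Xkr7 (0.987) and Gm5087 (0.985). Nhlh2 was nearest to Chrnb2 (0.991), Igfbpl1 (0.989) and Clvs1 (0.985), and Neurod2 to Fbxl19 (0.9903), Nhlh2 itself (0.981) and Chrnb2 (0.978). Etv1 was nearest to Zfp516 (0.955), Gm20342 (0.948) and Tm9sf4 (0.935). For the NFI genes the nearest were Gm17750 for Nfia (0.972), Acad9 for Nfib (0.980) and Cecr2 for Nfix (0.983). Among the members, Neurod1 and Nhlh1 were alike at 0.952, and Etv1 ran against all 7 others, at −0.48 to −0.79.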

How the data were processed

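RNA was measured in 15 bulk P2 libraries and 10 single-cell P7 libraries of 53 samples in the series; the chromatin samples were not analysed here. For P2 the authors deposited expected counts per gene from RSEM 1.3.3, listed with STAR 2.7.9a in the submitters' processing notes; 6.85 to 8.79% of values were not whole, values were rounded, and 92 spike-in rows were dropped. The names of the 2 deposited P2 tables carry the opposite allele to the samples their columns name; columns were assigned by column name. For P7 the authors deposited raw UMI counts per cell, with library names in the cell metadata. Cells had at least 1000 UMIs, 500 genes and under 15% mitochondrial counts. Scrublet in scanpy 1.11.5 marked 43.7 to 58.9% of control and 23.5 to 53.5% of mutant cells as doublets, far above a usual rate; those removed had median depths of 15377.5 to 26454 UMIs, and 45234 shallower cells (medians 4358 to 7826) were kept for classes and clusters (2000 variable genes, Leiden resolution 1), and sums over all cells kept every cell.

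Counts were tested with edgeR 4.0.16 (quasi-likelihood, TMM scaling, filterByExpr, Benjamini-Hochberg over all genes tested, called under 0.05); P7 libraries were summed and fitted together. SE is the size of the log2 fold change over the root of F, and 95% intervals are normal ones from the SE. Each P2 group comparison used its own allele's libraries. The code was tested on simulated data with 200 genes changed by 1 on the log2 scale. It recovered 53% (Insm1 P7 neuron-like cells) to 86% (Insm1 P2) of them, and 2.27 to 10.2% of its calls were false. Many more genes were called in the P7 group comparisons, so these rates need not hold there. All 8 members are named whatever their values, and of each gene list at most the 5 called genes with the smallest adjusted p; cluster leading genes were added after their values were seen. Members and lists were chosen with earlier results of these data known. Promoters are from a RefSeq table on GRCm38.p6 that matched 7 of the 8 genes. Alternatives were DESeq2 1.42.0, no filter, a replicate block, sex as a covariate, other doublet and cluster settings, and leaving out each library.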

Additional observations from a re-analysis of the deposited data

Results flagged for a closer look

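Nhlh1 at P2 was 22.2 CPM in the library labelled Tead1/2 mutant 4, while the other 3 mutants lay at 11.96 to 12.5 CPM. The gap to its nearest neighbour was 0.946 of the range of the group, above Dixon's limit for 4 samples. Of 24 groups of a gene and a genotype tested in this way, chance alone passes about 5%. The same library had the lowest muscle marker sum and the highest Tead2 of its group.

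The log2 fold change of Etv1 at P7 was lower after deletion of Tead1 and Tead2 than after deletion of Insm1, by the test of the difference itself: −0.52 on the log2 scale in sums over all cells (adjusted p = 0.0498) and −0.72 in the granule lineage (adjusted p = 0.0480). Both calls lie at the threshold: the first was lost in 14 of 20 alternatives, with adjusted p-values from 0.00228 to 0.245, and the second in 9 of 14 chosen after seeing the data, from 0.00243 to 0.226. The sign held in all of them.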

How the results depend on the processing

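With all libraries, 1 member was called for Insm1 at P2; leaving out 1 library gave 0 to 1 (0 without controls 1, 3 or 4 or mutants 2 or 4). For Tead1/2 at P2 none was called, against 1 with DESeq2, 3 with no filter on low counts and 0 to 2 when 1 library was left out (2 without the library labelled mutant 4). With the replicate number as a block, 2 were called, Neurod2 and Nhlh1; this fit drops that library, whose number no control shares. Same-numbered P2 samples had correlations of −0.134 to 0.283, so a pairing by number is not shown. Samples of unlike number were not compared. The block left the Insm1 count at 1; at P7, where the block was the dissection, counts were within 1.5 times of the unblocked ones, save that the allele difference in the granule lineage went from 1 to 0; over all cells it stayed at 1, with Nfia called in place of Etv1. The allele difference over all P7 cells, 1 member, became 3 with DESeq2, 2 with no filter, 0 with sex as a covariate, with Scrublet doublets or the top 4% of scores removed, and in neuron-like or progenitor-like cells alone, and 0 to 1 without 1 library. The same difference in the granule lineage, also 1 member, was 0 to 1 without 1 library. In the granule lineage, leaving out 1 library gave 3 to 6 members for Insm1 (3 without either Insm1 control or Insm1 mutant 2 or 3) and 2 to 6 for Tead1/2 (2 without either Tead1/2 control), from 5 each; in Tead1/2 progenitor-like cells it gave 0 to 2, from 2. Among the members' log2 fold changes, signs turned only in uncalled values. Leaving out 1 library took Neurod1 at P2 over −0.0863 to 0.019 (Insm1) and −0.154 to 0.008 (Tead1/2), Nfix at P2 over −0.111 to 0.0378 (Tead1/2), Nfib in the Tead1/2 lineage over −0.0482 to 0.0252, and in progenitor-like cells Neurod2 over −0.0096 to 0.606 (Insm1) and Nhlh2 over −0.102 to 0.102 (Tead1/2). Nfia in Insm1 progenitor-like cells was −0.0039 with the top 4% removed. Over all genes DESeq2 called 312 for Insm1 at P2 (183 higher, 129 lower) against 135 (94 higher, 41 lower), and 2159 for the P7 allele difference in all cells against 906. The causes of these shifts were not tested, and with 2 controls per allele at P7 the exact test over libraries cannot go below 0.2.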
